A study of Mus musculus with 12 samples.

Results

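The messenger RNA of 10 genes of the Nrf2 antioxidant pathway and of the NADPH oxidases was measured in left ventricular muscle of mice after pressure overload, with and without the flavonoid hispidulin. The genes were chosen by name: Nfe2l2, Keap1, Hmox1, Nqo1, Gclc, Gclm, Txnrd1, Cyba, Cybb and Nox4. Each was matched to its row through the NCBI Gene identifier. All 10 were found among 18079 genes, and all 10 were among the 11664 genes tested. The mice were C57BL/6, operated on at 8 weeks of age and examined 4 weeks later, at 12 weeks. They had either sham surgery (Sham) or banding of the aorta (AB), which loads the left ventricle with pressure. DMSO, the vehicle, or hispidulin at 20 mg/kg/day was injected intraperitoneally once a day, from the day ahead of surgery until the end. Crossing surgery with injection gave 4 groups of 3 mice, written as DMSO+Sham, DMSO+AB, Hispidulin+Sham and Hispidulin+AB, with 1 library per mouse. No genetic modification is named for any mouse.

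Nrf2, encoded by Nfe2l2, is a transcription factor that switches on genes against oxidative and electrophilic stress. In resting cells Keap1 binds Nrf2 and hands it to an ubiquitin ligase for breakdown, and oxidants that modify Keap1 let Nrf2 accumulate, so that the pathway is controlled mainly at the protein level. NADPH oxidases are membrane enzymes that pass electrons from NADPH to oxygen and so make superoxide or hydrogen peroxide, and in the heart they are studied as sources of oxidants under pressure overload.

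FPKM (fragment counts scaled to transcript length and to the size of the library) were deposited for every mouse. Because of the scaling to length, levels can be set side by side between genes. Sums over all genes were between 535235 and 567027 FPKM in a mouse. Read totals are not part of such values, which leaves depth unknown and counting error without an estimate. Cardiomyocyte markers (Myh6, Tnnt2, Tnni3, Actc1, Ryr2, Myl2, Myl3) summed to between 36118 and 53244 FPKM, as the labelled tissue would have. The library of DMSO+Sham mouse 3 stood apart. It had the lowest sum of these markers, 534 genes that lay more than 1 log2 unit from its group mates, and the highest value of 22.1% of all tested genes. Atrial muscle markers (Myl7, Sln, Myl4) summed to 774 FPKM in Hispidulin+Sham mouse 3, to 172 in DMSO+AB mouse 2 and to 91.0 in Hispidulin+AB mouse 3, against at most 40.0 in the other mice. Red cell markers (Hba-a1, Hba-a2, Hbb-bs, Hbb-bt, Alas2) summed to 10251 FPKM in Hispidulin+Sham mouse 3 and to at most 5028 in the other mice. The labels do not say that a replicate number marks a shared litter or day, and p-values measure the spread between these mice.

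The first question was which of the genes are abundant in this tissue. Mean FPKM over the 12 mice was highest for Cyba (43.9 ± 6.31, SD, n = 12), Nqo1 (40.4 ± 5.62) and Nfe2l2 (35.9 ± 6.71). Neighbours in this order differed by less than either SD of the pair. Txnrd1 (26.6 ± 5.93), Keap1 (22.4 ± 2.29), Hmox1 (18.1 ± 15.7) and Gclm (17.2 ± 7.78) followed, with neighbours closer than the larger SD of the pair. Gclc was lower, at 7.58 ± 0.958 FPKM. The oxidase chains Cybb (3.40 ± 3.42) and Nox4 (1.35 ± 1.77) were the least abundant of the 10. The genes also differed in how far mice lay apart. The highest mouse was 1.39 times the lowest for Keap1, 1.41 times for Nqo1 and 1.51 times for Gclc, but 9.40 times for Hmox1, 8.86 times for Cybb and 40.8 times for Nox4. Each of these 3 ranges rested partly on 1 mouse. Without DMSO+Sham mouse 3 they were 4.48 times for Hmox1 and 2.34 times for Cybb, and without DMSO+AB mouse 2 15.8 times for Nox4. On the log2(FPKM + 1) scale the SD of Hmox1 over all mice was larger than that of 98.9% of tested genes, and that of Nox4 larger than that of 98.4%. The SD of Keap1 was larger than that of 25.8% of tested genes.

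**Figure D1:**
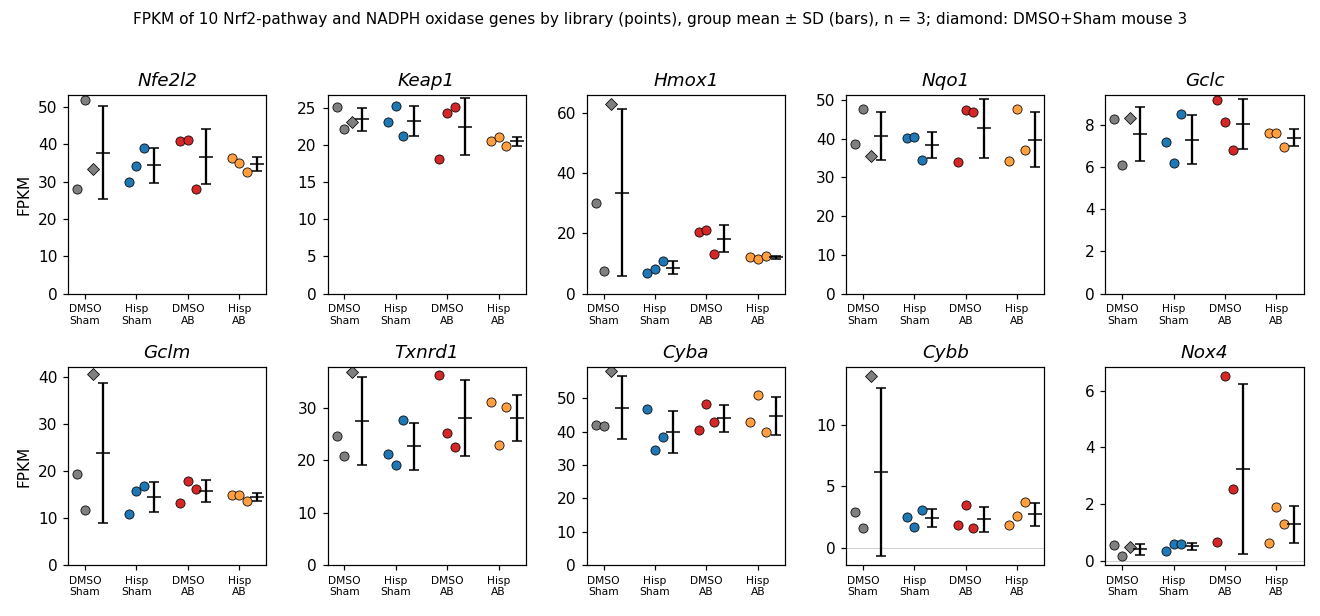
FPKM of each of the 10 genes (vertical axes, linear) in the 3 mice of each group (points), with the group mean and SD beside them (bars). DMSO+Sham mouse 3, drawn as a diamond, is the highest point for Hmox1, Gclm, Txnrd1, Cyba and Cybb, and the highest Nox4 value, 6.53 FPKM, is a DMSO+AB mouse.

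Whether AB or hispidulin changed these genes was tested in 1 limma model of log2(FPKM + 1) over all 12 mice, with p-values adjusted over all tested genes and a threshold of 0.05. No gene of the 10 passed in any of the 7 comparisons made. In DMSO+AB against DMSO+Sham, 0 of 10 passed, where 5.21% of all tested genes did, and 1 of 10 had an unadjusted p under 0.05, as did 20.4% of all tested genes. With AB averaged over both treatments, 0 of 10 passed, where 7.39% of all tested genes did. In Hispidulin+AB against DMSO+AB, in Hispidulin+Sham against DMSO+Sham and in Hispidulin+AB against Hispidulin+Sham, 0 of 10 passed. In these 3 comparisons 0% of all tested genes passed, although in Hispidulin+AB against Hispidulin+Sham 17 of all tested genes passed with the replicate number as a block and 209 with library weights, none of the 10 among them. An unadjusted p under 0.05 was found for 0, 1 and 0 of the 10 and for 3.1%, 2.46% and 7.26% of all tested genes. The interaction of hispidulin and AB, and hispidulin averaged over Sham and AB, also had 0 of 10 and 0% of all tested genes, with 0 and 1 of the 10, and 2.48% and 2.97% of all tested genes, at an unadjusted p under 0.05. With AB averaged, 1 of the 10 and 23.3% of all tested genes had such a p. Under AB, with DMSO or averaged, that 1 gene was Nox4. It entered the test only through AB mice, so the filter favoured a low p. The comparisons share groups, so their values are not independent of each other.

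The groups were also compared by whether the 3 mice of one lay wholly above or below the 3 of the other. That was so for 1 of the 10 in DMSO+AB against DMSO+Sham, beside 17.9% of all tested genes, and for 3 of the 10 in Hispidulin+AB against Hispidulin+Sham, beside 20.9%. In Hispidulin+AB against DMSO+AB it was so for 1 of the 10 and for 7.88% of all tested genes, 4.23% upward and 3.65% downward. In Hispidulin+Sham against DMSO+Sham it was so for 0 of the 10 and for 5.6% of all tested genes, 2.77% upward and 2.83% downward. Each count lay within 1 gene of what these shares give over 10 genes. Nox4 was in both counts of AB against Sham and entered the test only through AB mice, so the filter favoured groups wholly apart.

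**Figure D2:**
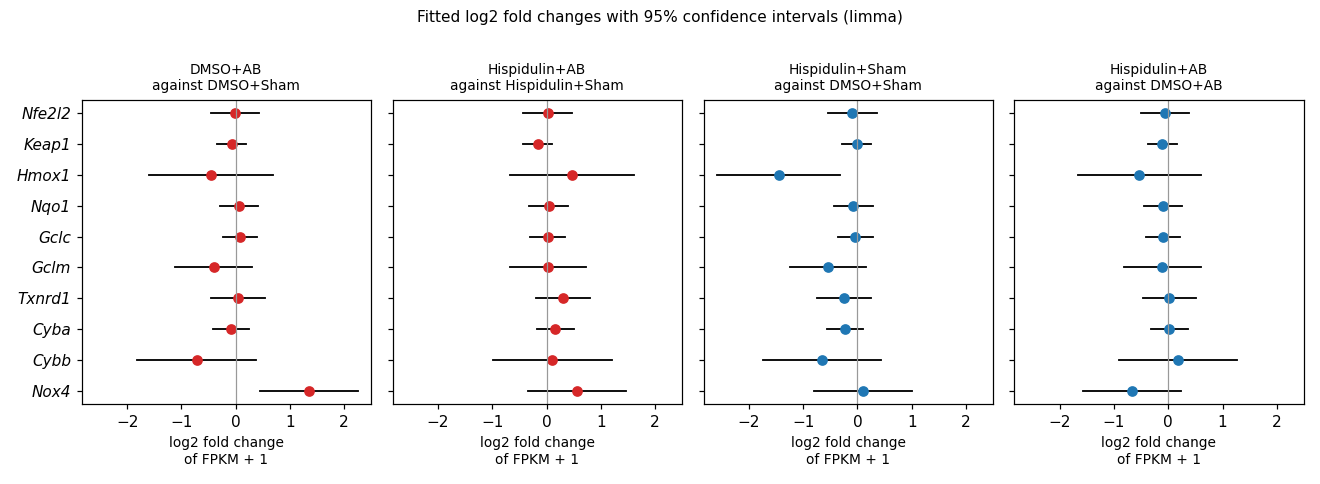
Log2 fold change of FPKM + 1 (horizontal axes) of the 10 genes with its 95% confidence interval from limma, for the 4 comparisons between groups of 3 mice. The interval lies above 0 for Nox4 in DMSO+AB against DMSO+Sham (0.44 to 2.25) and below 0 for Hmox1 in Hispidulin+Sham against DMSO+Sham (-2.60 to -0.32), and holds 0 in every other case drawn. Nox4 entered the test only through AB mice, so its interval is a description.

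Of the genes that control the pathway, Nfe2l2 was measured at 28.11, 51.82 and 33.30 FPKM in DMSO+Sham and at 29.80, 34.26 and 39.07 in Hispidulin+Sham. After AB it was at 40.92, 41.18 and 28.16 FPKM with DMSO and at 36.38, 34.98 and 32.68 with hispidulin. All groups overlapped, and the mice of DMSO+Sham spanned more than the differences between group means. The log2 fold change under AB was -0.01 (95% interval -0.46 to 0.44), and that of hispidulin averaged over Sham and AB was -0.08 (95% interval -0.40 to 0.24). Keap1, the Nrf2 inhibitor, was at 25.09, 22.16 and 23.05 FPKM in DMSO+Sham, 23.14, 25.22 and 21.17 in Hispidulin+Sham, 18.12, 24.24 and 25.06 in DMSO+AB and 20.51, 21.14 and 19.90 in Hispidulin+AB. The 3 Hispidulin+AB mice all lay below the 3 Hispidulin+Sham mice. That was so for 1 of the 10 genes and for 11.8% of all tested genes, and the log2 fold change was -0.17 ± 0.12 (SE, adjusted p = 0.861 from limma, exact permutation p = 0.1, two-sided, the smallest that 3 against 3 allow). The ratio of Nfe2l2 to Keap1 FPKM averaged 1.63 ± 0.631 (SD, n = 3) in DMSO+Sham. It averaged 1.69 ± 0.567 after AB with DMSO and 1.69 ± 0.0726 after AB with hispidulin, and it lay between 1.29 and 1.85 in the Hispidulin+Sham mice. These groups overlapped, and the ratio ranged most widely within DMSO+Sham and DMSO+AB.

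Nrf2 binds, with a small Maf protein, to antioxidant response elements, whose core is TGACNNNGC. This motif was searched on both strands of the RefSeq windows that run from 250 bases ahead of a gene's start to 50 bases after it, in GRCm38.p6. Windows were found for 8 of the 10 genes, 10 windows in all, and not for Hmox1 or Gclc. A match was found for 3 of the 8, Nfe2l2, Gclm and Txnrd1. Of all 32851 windows 12.4% held the motif, and of all 27025 genes with a window 14.0%. The related motif TGACTCA was in none of the 10 windows and in 5.20% of all windows. A match describes the sequence and was not tested for binding. The 3 matches are shown on the strand of the gene, with the motif or its reverse complement in capitals.
Nfe2l2, chr2:75704885-75704913, minus strand, motif 240 bases ahead of the start: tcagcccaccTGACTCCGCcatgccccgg
Gclm, chr3:122245413-122245441, plus strand, motif 134 bases ahead of the start: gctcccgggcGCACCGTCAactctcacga
Txnrd1, chr10:82859104-82859132, plus strand, motif 92 bases ahead of the start: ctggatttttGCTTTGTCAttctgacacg

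Hmox1, which encodes haem oxygenase 1, the enzyme that opens haem to biliverdin, iron and carbon monoxide, had lower group means with hispidulin, and none of its differences passed the test. It was at 30.00, 7.63 and 62.96 FPKM in DMSO+Sham and at 6.70, 8.04 and 10.92 in Hispidulin+Sham. After AB it was at 20.29, 21.23 and 12.98 FPKM with DMSO and at 12.21, 11.32 and 12.42 with hispidulin. The spread within DMSO+Sham was wider than that of the other 9 mice together. All 3 Hispidulin+AB mice lay below all 3 DMSO+AB mice, the 1 such case among the 10 genes, and the gap between the nearest mice was small, 12.42 to 12.98 FPKM. That log2 fold change was -0.53 ± 0.52 (SE, adjusted p = 0.996 from limma, exact permutation p = 0.1, two-sided). Between the Sham groups it was -1.46 ± 0.52 (unadjusted p = 0.0166, adjusted p = 1.00), and the groups overlapped through DMSO+Sham mouse 2. Averaged over Sham and AB, hispidulin gave -0.99 ± 0.37 (adjusted p = 0.999), and the exact permutation within surgery gave p = 0.035, two-sided, where the smallest p it allows is 0.005. This permutation p is not adjusted and was the lowest of the 10 genes, with the others between 0.265 and 0.745. Without DMSO+Sham mouse 3 the difference between the Sham groups was -0.80 and the average -0.67, and without DMSO+Sham mouse 2 they were -2.24 and -1.39. Within the animal number series of the labels whose DMSO+Sham library is mouse 3, the Sham difference was -2.42 (1 mouse against 1), and in the series that holds DMSO+Sham mouse 2 it was -0.05 (1 against 2).

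The AB differences of Hmox1 had opposite signs with DMSO and with hispidulin. DMSO+AB against DMSO+Sham gave a log2 fold change of -0.46 ± 0.52 (SE, adjusted p = 0.664). It was 0.20 without DMSO+Sham mouse 3 and -1.25 without DMSO+Sham mouse 2, where it passed (adjusted p = 0.0253), so the DMSO+Sham mice set its sign. Hispidulin+AB against Hispidulin+Sham gave 0.47 ± 0.52 (adjusted p = 0.921), with all 3 AB mice above all 3 Sham mice. It was 0.18 with the number series as covariate, and within the series it was 0.69 (1 mouse against 2) and 0.10 (2 against 1). The 3 AB mice lay wholly above the 3 Sham mice for 2 of the 10 genes, Hmox1 and Nox4, and for 9.14% of all tested genes. The interaction, 0.92 ± 0.74, did not pass (adjusted p = 1.00), and it was 0.27 without DMSO+Sham mouse 3 and 1.71 without DMSO+Sham mouse 2.

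Nqo1, a quinone reductase and a standard reporter of Nrf2 activity, was among the steadiest of the targets. It was at 38.68, 47.65 and 35.62 FPKM in DMSO+Sham, 40.18, 40.57 and 34.47 in Hispidulin+Sham, 33.91, 47.35 and 46.85 in DMSO+AB and 34.34, 47.78 and 37.12 in Hispidulin+AB. All groups overlapped and each AB group held mice near both ends of the range. The log2 fold change of hispidulin after AB was -0.10 (95% interval -0.46 to 0.26), and the average over Sham and AB was -0.09 (95% interval -0.34 to 0.17).

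Gclc and Gclm encode the catalytic and the modifier subunit of glutamate-cysteine ligase, the rate-limiting enzyme of glutathione synthesis, and their spread differed. Gclc was at 8.27, 6.09 and 8.33 FPKM in DMSO+Sham, 7.21, 6.20 and 8.51 in Hispidulin+Sham, 9.19, 8.14 and 6.79 in DMSO+AB and 7.63, 7.62 and 6.95 in Hispidulin+AB. Its groups overlapped. Its log2 fold change with hispidulin after AB was -0.10 (95% interval -0.42 to 0.22). Gclm was at 19.39, 11.82 and 40.64 FPKM in DMSO+Sham and between 10.85 and 17.86 in the other 9 mice. DMSO+Sham mouse 3 was therefore far above every other mouse for the modifier subunit and within the range of the others for the catalytic one. The Gclm to Gclc ratio of FPKM was 4.88 in that mouse and between 1.45 and 2.54 in the other 11, and the 3 Hispidulin+AB mice had almost the same value, 1.96 ± 0.00851 (SD, n = 3). Gclm had a log2 fold change of -0.41 ± 0.32 (SE) under AB (adjusted p = 0.517) and of -0.54 ± 0.32 between the Sham groups (adjusted p = 1.00). Without DMSO+Sham mouse 3 these were 0.05 and -0.09.

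Txnrd1, the cytosolic thioredoxin reductase, was at 24.64, 20.92 and 36.91 FPKM in DMSO+Sham, 21.23, 19.15 and 27.69 in Hispidulin+Sham, 36.35, 25.23 and 22.60 in DMSO+AB and 31.09, 22.99 and 30.16 in Hispidulin+AB. Every group held 1 mouse or more above 27 FPKM and 1 or more below 24, so the groups overlapped. The largest of its pairwise differences was 0.30 ± 0.23 on the log2 scale (SE) for Hispidulin+AB against Hispidulin+Sham (adjusted p = 0.862). Between the Sham groups it was -0.24, and -0.02 without DMSO+Sham mouse 3.

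Of the oxidase genes, Cyba encodes p22phox, the membrane partner that stabilises several NADPH oxidases. It was at 41.88, 41.56 and 58.16 FPKM in DMSO+Sham, 46.69, 34.53 and 38.44 in Hispidulin+Sham, 40.48, 48.34 and 42.98 in DMSO+AB and 42.91, 50.99 and 39.89 in Hispidulin+AB. The groups overlapped, and the log2 fold change between the Sham groups was -0.23 ± 0.15 (SE, adjusted p = 1.00), or -0.07 without DMSO+Sham mouse 3. Cybb encodes Nox2 (gp91phox), the catalytic chain of the phagocyte oxidase. It was at 2.87, 1.58 and 14.00 FPKM in DMSO+Sham, 2.49, 1.69 and 3.09 in Hispidulin+Sham, 1.84, 3.46 and 1.64 in DMSO+AB and 1.85, 2.59 and 3.70 in Hispidulin+AB. A single mouse held the high value and the other 11 lay between 1.58 and 3.70 FPKM. The log2 fold change was -0.72 ± 0.50 under AB (SE, adjusted p = 0.454) and -0.65 ± 0.50 between the Sham groups (adjusted p = 1.00). Without DMSO+Sham mouse 3 both turned in sign, to 0.03 and 0.09. After AB the change with hispidulin was 0.17 (95% interval -0.92 to 1.27). FPKM of Cyba were 4.15 times those of Cybb in DMSO+Sham mouse 3 and between 10.8 and 26.3 times in the other mice.

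Cells that make Nox2 in blood and tissue include macrophages, monocytes and neutrophils, and many of their markers were also highest in that mouse. The 12 phagocyte markers (Ptprc, Cd68, Adgre1, Csf1r, Itgam, Lyz2, C1qa, C1qb, Fcgr1, Mrc1, Cd163, Cd14) were detected in every mouse. They summed to between 242 and 527 FPKM in DMSO+Sham, 239 and 373 in Hispidulin+Sham, 313 and 476 in DMSO+AB and 322 and 397 in Hispidulin+AB. DMSO+Sham mouse 3 had the highest sum, with the highest value of 7 of the 12. In that mouse Itgam was at 18.22 and Fcgr1 at 13.53 FPKM, against at most 3.41 and 2.09 in the other mice. The other 5 peaked elsewhere, Csf1r and Cd163 in Hispidulin+Sham mouse 3, Mrc1 in DMSO+AB mouse 1, Lyz2 in DMSO+AB mouse 2 and Cd68 in Hispidulin+AB mouse 3. Mrc1 was at 5.86 and Cd163 at 5.88 FPKM in DMSO+Sham mouse 3, against at most 7.94 and 9.18. The 6 neutrophil markers (S100a8, S100a9, Csf3r, Ly6g, Retnlg, Mmp8) summed to 65.6 FPKM there and to between 1.09 and 39.8 elsewhere, with 23.2 to 39.8 in Hispidulin+AB beside 5.41 to 28.0 in DMSO+AB. Mmp8 and Retnlg had their highest values in Hispidulin+AB. Cytosolic partners of the oxidase shared the pattern, with Ncf1 at 7.66, Ncf4 at 5.58 and Rac2 at 8.66 FPKM in that mouse and at most 5.88, 3.35 and 2.45 in the others. In bulk tissue a change in the number of such cells and a change in RNA per cell cannot be told apart. The part of these cells in the Cybb values was not tested.

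**Figure D3:**
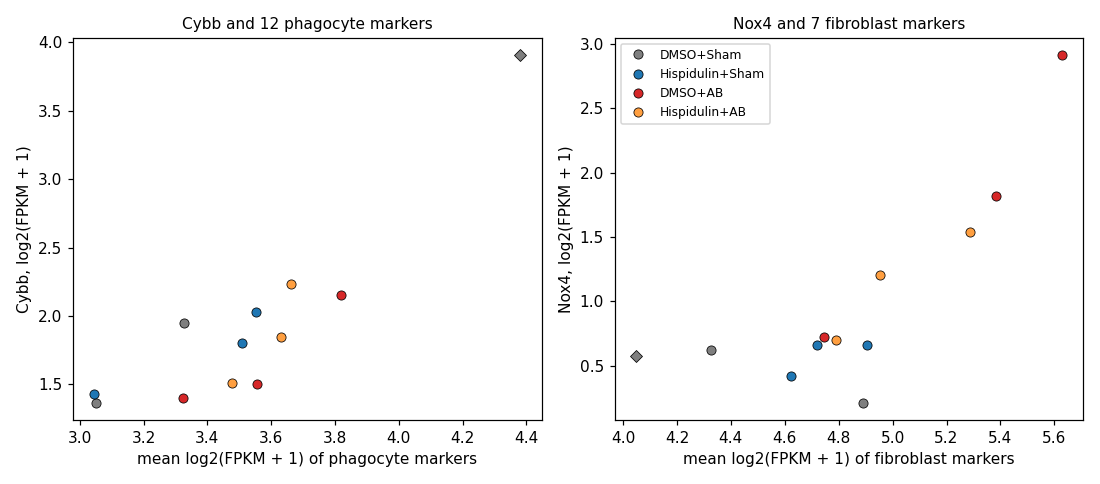
Left: log2(FPKM + 1) of Cybb against the mean of log2(FPKM + 1) over 12 phagocyte markers in each mouse; right: the same for Nox4 and 7 fibroblast markers. DMSO+Sham mouse 3 (diamond) is at the top right of the left plot, and the 3 mice with the highest fibroblast mean, 2 of DMSO+AB and 1 of Hispidulin+AB, have the 3 highest Nox4 values.

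Nox4 encodes an oxidase that needs p22phox, makes mainly hydrogen peroxide and is regulated largely by its own amount. Of the 10 genes it had the largest difference under AB with DMSO, and this did not pass the test. Nox4 was at 0.54, 0.16 and 0.49 FPKM in DMSO+Sham and at 0.34, 0.58 and 0.58 in Hispidulin+Sham. It was at 0.65, 6.53 and 2.52 FPKM in DMSO+AB and at 0.62, 1.90 and 1.31 in Hispidulin+AB. All 6 AB mice lay above all 6 Sham mice, although DMSO+AB mouse 1 and Hispidulin+AB mouse 1 only just did. Nox4 reached 1 FPKM in 4 mice, all with AB, and entered the test only through them, so its passing of the filter already favoured a difference and the values of p for AB that follow are given as a description. Under AB with DMSO the log2 fold change was 1.35 ± 0.41 (SE, adjusted p = 0.0863 from limma, or 0.144 with no filter on low values). On this scale a low gene's fold is understated, and with 0.1 added in place of 1 the value was 2.35. Groups wholly apart, upward, were found in this comparison for 1 of the 10 genes and for 7.18% of all tested genes. With hispidulin it was 0.57 ± 0.41 (adjusted p = 0.861), and averaged over both treatments 0.96 ± 0.29 (adjusted p = 0.0702, or 0.120 with no filter, and 1.73 on the log2 scale with 0.1 added). The change with DMSO was 1.89 without DMSO+AB mouse 1, where it passed (adjusted p = 0.00513), and 0.80 without DMSO+AB mouse 2. Averaged over both treatments it passed without DMSO+AB mouse 1 (1.23, adjusted p = 0.00495). Within the animal number series it was 1.60 (1 mouse against 1) and 1.24 (2 against 1). After AB, hispidulin against DMSO gave a log2 fold change of -0.67 ± 0.41 (adjusted p = 0.996), with overlapping groups. That difference was -0.12 without DMSO+AB mouse 2 and -1.22 without DMSO+AB mouse 1. The interaction was -0.78 ± 0.59 (adjusted p = 1.00), or -0.23 without DMSO+AB mouse 2 and -1.33 without DMSO+AB mouse 1.

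Fibroblasts make Nox4 as cardiomyocytes do, and 5 of 7 fibroblast markers had their highest value in DMSO+AB mouse 2 or 3, the mice highest in Nox4, where 14.3% and 14.8% of all tested genes had theirs. The 7 markers (Pdgfra, Tcf21, Dcn, Lum, Col1a1, Col1a2, Dpt) summed to between 363 and 446 FPKM in DMSO+Sham, 375 and 500 in Hispidulin+Sham, 392 and 757 in DMSO+AB and 405 and 578 in Hispidulin+AB, and none was at 0 in any mouse. Col1a1 and Col1a2, chains of type I collagen, rose under AB with DMSO (log2 fold changes of 1.86 and 1.60, adjusted p = 0.0407 and 0.0464), and the other 5 did not pass. Col1a1 was at 10.06, 26.40 and 8.50 FPKM in DMSO+Sham and at 22.89, 74.84 and 75.58 in DMSO+AB. For both collagens DMSO+AB mouse 1 lay below DMSO+Sham mouse 2, so the groups overlapped. All 7 markers had a log2 fold change above 0 in this comparison. Pdgfra and Dpt had their highest values in other mice. Pdgfra was at 5.46, 5.80 and 6.51 FPKM in DMSO+Sham and at 7.22, 6.84 and 7.93 in DMSO+AB, with no overlap. It was highest in Hispidulin+AB mouse 3. Dpt was at 33.24, 50.24 and 23.87 FPKM in DMSO+Sham and at 41.66, 55.79 and 34.40 in DMSO+AB, with overlap. It was highest in Hispidulin+Sham mouse 3. The part of fibroblasts in the Nox4 values was not tested. Of the other catalytic oxidase chains, those measured were at or near 0. Nox1 was at no more than 0.04, Duox1 at no more than 0.26 and Duox2 at no more than 0.14 FPKM in any mouse.

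DMSO+Sham mouse 3 held the highest value of 5 of the 10 genes (Hmox1, Gclm, Txnrd1, Cyba, Cybb), against 22.1% of all tested genes. Of the pathway lists described further on, it held the highest value of 6 of 8 tested oxidase partners, 5 of 8 glutathione genes, 3 of 7 haem and iron genes, 2 of 6 NADPH supply genes, 1 of 5 thioredoxin partners, 2 of 10 Nrf2 control genes and 1 of 10 detoxification genes. Without it, the number of the 10 genes below 0 fell from 6 to 3 in DMSO+AB against DMSO+Sham and from 9 to 7 in Hispidulin+Sham against DMSO+Sham. Hispidulin averaged over Sham and AB was below 0 for all 10 genes, with a median log2 fold change of -0.11 beside -0.003 over all tested genes. Without that mouse it was below 0 for 8 of 10 (Txnrd1 at 0.0002 and Cybb at 0.13 being the others), with a median of -0.08. The same 12 mice give all 10 values, so they are not 10 independent observations. In Hispidulin+AB against DMSO+AB, which does not contain that mouse, 7 of the 10 were below 0, with a median of -0.10 beside 0.005 over all tested genes.

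**Figure D4:**
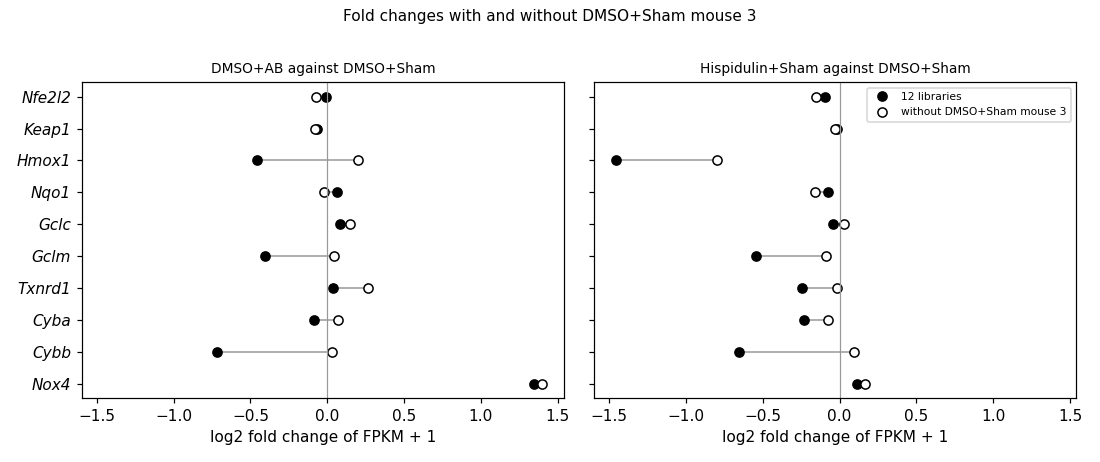
Log2 fold change of FPKM + 1 (horizontal axes) of the 10 genes with all 12 libraries (filled) and without DMSO+Sham mouse 3 (open). Under AB (left) Hmox1, Gclm and Cybb go from -0.46, -0.41 and -0.72 to 0.20, 0.05 and 0.03, while Nox4 stays above 1.

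Other genes of the pathway were described from 7 lists of 62 genes, of which 54 were tested. In DMSO+AB against DMSO+Sham, 0 of the 54 rose and 2 fell, where 2.50% of all tested genes rose and 2.71% fell. The median log2 fold change of the 54 was 0.05 beside -0.03 over all tested genes. Slc40a1, which encodes the iron exporter ferroportin, fell from 10.06, 7.98 and 12.33 FPKM to 5.67, 4.10 and 3.63, with no overlap (log2 fold change -1.02 ± 0.19, SE, adjusted p = 0.0133). Aldh2, the mitochondrial aldehyde dehydrogenase, fell from 153.59, 134.80 and 147.44 FPKM to 99.52, 72.17 and 94.35 (-0.72 ± 0.13, adjusted p = 0.0121). Neither call held without DMSO+Sham mouse 1 (adjusted p = 0.0544 and 0.0565) or with only the 6 libraries compared (0.121 and 0.126). The log2 fold changes there were -1.02 and -0.68 without that mouse and -1.02 and -0.72 with the 6 libraries. The Slc40a1 call was also lost without DMSO+AB mouse 2 or 3 (0.0602 and 0.0524), and the Aldh2 call with the series of animal numbers as covariate (0.0595). With AB averaged over both treatments, 1 of the 54 rose and 4 fell, where 3.52% and 3.87% of all tested genes did. Mafk, a small Maf partner of Nrf2, rose by 0.47 ± 0.12 (adjusted p = 0.0331). Slc40a1 (-0.82), Aldh2 (-0.55) and the glutathione transferases Gstm1 (-0.44) and Gstp1 (-0.25) fell. Slc40a1 and Aldh2 passed here in all 21 alternatives run, whereas the calls of Mafk, Gstm1 and Gstp1 were each lost in 9 or more of them.

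Srxn1, which encodes sulfiredoxin, a repair enzyme of oxidised peroxiredoxins and a known Nrf2 target, had the largest list difference under AB without passing. It was at 11.96, 7.72 and 25.82 FPKM in DMSO+Sham and at 67.38, 25.50 and 21.34 in DMSO+AB. With hispidulin it was at 18.09, 8.66 and 27.09 FPKM after Sham surgery and at 43.64, 20.83 and 47.80 after AB. Sham and AB mice overlapped under both treatments (log2 fold change 1.25 ± 0.53 with DMSO, SE, adjusted p = 0.209). Averaged over both treatments it was 1.16 (adjusted p = 0.0845), and it passed without DMSO+Sham mouse 3 (1.38, adjusted p = 0.0319). Other genes furthest from 0 in their lists under AB with DMSO were Ces2e (0.83, at no more than 1.83 FPKM), Mgst1 (-0.73), Ugdh (0.57), Gstm1 (-0.55), Fth1 (-0.41), Mafk (0.40), Bach1 (-0.40), Rac2 (-0.40), Dpp3 (0.38), Idh1 (-0.34) and Gpx4 (0.33), none of which passed. So were Slc48a1 (0.29), Cybc1 (0.27), Pgd (0.26), Pdia4 (-0.18), Prdx1 (-0.11), G6pdx (0.11) and Txn1 (0.07). Slc7a11, the cystine importer, was at no more than 0.05 FPKM in any mouse and was not tested.

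**Figure D5:**
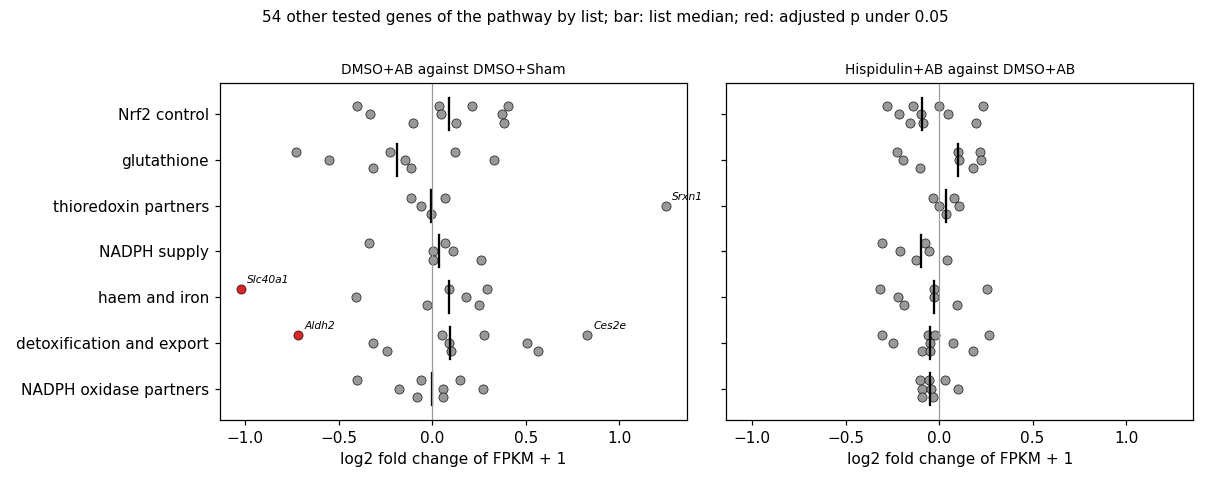
Log2 fold change of FPKM + 1 (horizontal axes) of the 54 tested genes in 7 pathway lists (rows), with list medians as bars. Under AB with DMSO (left) Slc40a1 and Aldh2 passed (red) and Srxn1 lay furthest out at 1.25 without passing; with hispidulin after AB (right) all lay between -0.32 and 0.26 and none passed.

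In Hispidulin+AB against DMSO+AB, 0 of the 54 list genes passed, 19 were above 0 and 35 below, and the median was -0.05 beside 0.005 over all tested genes. The furthest from 0 were Ftl1 (-0.32), the ferritin light chain, Ces2e (-0.31), G6pdx (-0.30), the entry enzyme of the pentose phosphate pathway, and Mafk (-0.28) below, and Aldh2 (0.26) and Slc40a1 (0.25) above. Their adjusted p was 0.996 in each case. The other genes among the 3 furthest from 0 in their lists lay between -0.25 (Ugdh) and 0.24 (Bach1). Below 0 these were Gsr (-0.23), Slc48a1 (-0.22), Dpp3 (-0.21), Pgd (-0.21), Tkt (-0.12), Pdia4 (-0.10) and Cybc1 (-0.09), and above 0 Ggct (0.23), Gstm1 (0.22), Prdx1 (0.10), Rac2 (0.10), Srxn1 (0.08) and Txnrd2 (0.04). List medians lay on both sides of 0, at 0.10 for glutathione (5 of 8 above 0), 0.04 for thioredoxin partners, -0.03 for haem and iron, -0.05 for detoxification, -0.05 for oxidase partners, -0.09 for Nrf2 control and -0.10 for NADPH supply (5 of 6 below 0). In Hispidulin+Sham against DMSO+Sham 34 of the 54 list genes were below 0, with a median of -0.03 beside -0.007 over all tested genes. All 8 tested oxidase partners were among them (median -0.13). None of the 54 passed. The reference of this comparison holds DMSO+Sham mouse 3, which had the highest value of 6 of these 8 partners.

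Genes with the most similar pattern over the 12 mice, by Pearson correlation of log2(FPKM + 1), were found for each of the 10. For Nfe2l2 they were Srsf3 (r = 0.95), Kpna2 (0.91) and Ywhaz (0.91), and for Keap1 Zfp784 (0.94), Bscl2 (0.94) and Map2k7 (0.93). For Hmox1 they were Ell (0.92), Sbds (0.90) and Slc7a6 (0.88), for Nqo1 Mfap2 (0.92), Sema3b (0.90) and Commd10 (0.89), and for Cyba Smim24 (0.94), Unc93b1 (0.91) and Creld2 (0.91). Without DMSO+Sham mouse 3 those of Hmox1 were 0.83, 0.78 and 0.86, and those of Cyba 0.93, 0.84 and 0.85. Gclc had the loosest matches, Cspp1 (0.82), Uhrf1bp1l (0.81) and Nkrf (0.80). Txnrd1 was closest to Ripk1 (0.94), Psmd11 (0.93) and Mafg (0.93), with Mafg also on the list of Nrf2 partners. Nox4 was closest to Enpp1 (0.96), Trem2 (0.95) and Star (0.95), with Spearman's rho of 0.96, 0.82 and 0.75, and without DMSO+AB mouse 2, the highest in Nox4, r was 0.90, 0.90 and 0.87. Cybb was closest to Rassf5 (0.96), Samhd1 (0.96) and Cfb (0.96), and Gclm to Tbl1xr1 (0.95), Ap3b1 (0.95) and Parp4 (0.95), but these 6 correlations were between 0.74 and 0.80 without DMSO+Sham mouse 3. Among the 10 themselves, the closest pairs were Hmox1 with Gclm (0.87, or 0.68 without DMSO+Sham mouse 3) and Gclm with Cybb (0.85, or 0.30 without it). Txnrd1 ran against Nqo1 (-0.72, or -0.70 without that mouse) and Keap1 (-0.62, or -0.79). All such values share the same 12 libraries and are descriptions.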

How the data were processed

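RNA of left ventricular muscle from 12 mice was sequenced as single-end 50-base reads, 1 library per mouse, and the labels gave each sample's group. The authors deposited FPKM for 18079 genes in 1 table. The submitters' processing notes list HISAT2 2.0.4, Bowtie2 2.2.5, RSEM 1.2.12 and DESeq2 1.4.5 without roles, and the genome build is not given in the sources used here. Symbols were found for 17947 genes. Genes that reached 1 FPKM in 3 or more libraries were tested on log2(FPKM + 1) with limma 3.58.1 in R 4.3.3, with 1 mean per group, a mean-variance trend, two-sided tests and Benjamini-Hochberg adjustment over the 11664 genes tested. Fold changes on this scale understate those of low genes. Exact permutation tests and the motif search were run in Python 3.11.15. The code was tested on simulated data.

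The 10 genes and all lists were chosen with earlier results of these data known. List genes named are those that passed, up to 10 per comparison, and those among the 3 furthest from 0 in their list under AB or with hispidulin after AB. The nearest patterns are the 3 highest correlations. Replicate numbers belong to different mice. Residuals of same-numbered libraries correlated by 0.126, 0.330 and 0.232 between the Sham groups. Between the hispidulin groups the values were 0.147, 0.197 and 0.228. All tests given above were unpaired unless a block is named, and the replicate number as a block was an alternative fit. In the other comparisons at least 1 correlation was below 0.1. Alternatives were other values added, filters, scalings, weights, covariates and each library left out. Values of 1 listed gene are not reported here.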

Additional observations from a re-analysis of the deposited data

How the results depend on the processing

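No call on the 10 genes was made in any hispidulin comparison or the interaction under any alternative. In DMSO+AB against DMSO+Sham 1 of the 10 passed with library weights (Nox4, adjusted p = 0.0357) and 0 to 1 with a library left out (Nox4 without DMSO+AB mouse 1, Hmox1 without DMSO+Sham mouse 2), and for AB averaged 1 passed with 0.1 added in place of 1 (Nox4, adjusted p = 0.0484), 1 with library weights, and 0 to 1 with a library left out. Nox4 entered the test only through AB mice, so the filter already favoured such a call, and the Nox4 calls support nothing. The list genes called in DMSO+AB against DMSO+Sham, 2 in the report, numbered 4 with quantile normalization, 6 with library weights, 1 with the series of animal numbers as covariate, 0 with only the libraries compared, and 0 to 7 with a library left out. For AB averaged, 5 in the report, they numbered 3 without a filter, 15 with library weights, 2 with the series as a covariate, and 2 to 8 with a library left out. For Hispidulin+AB against Hispidulin+Sham they numbered 2 with library weights. Over all tested genes, calls ran from 11 to 1423 in DMSO+AB against DMSO+Sham and from 376 to 2535 for AB averaged. They ran from 0 to 209 in Hispidulin+AB against Hispidulin+Sham, from 0 to 20 in Hispidulin+AB against DMSO+AB (20 without DMSO+AB mouse 1), 0 to 3 for the interaction and 0 to 2 for hispidulin averaged.

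With the replicate number as a block, 0 of the 10 genes passed in any comparison and 4 list genes passed in DMSO+AB against DMSO+Sham. Srxn1 with AB averaged passed under the block (adjusted p = 0.0346) and with library weights (0.0129).

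Cybb and Nox4 gave no value under the filter of at least 5 FPKM in 3 libraries, which they did not pass. Signs that turned belonged to small or single-mouse differences, and their cause was not tested. Nfe2l2 under AB was 0.0147 with median-of-ratios scaling, 0.31 with library weights and -0.19 to 0.24 with a library left out, and with hispidulin averaged it was -0.17 to 0.0462 with one left out. Cybb with hispidulin after AB was -0.0592 with library weights. With a library left out, Cybb was -0.0104 to 0.41 there, -1.24 to 0.0280 under AB, -1.18 to 0.0945 between the Sham groups and -0.50 to 0.13 with hispidulin averaged. The same ranges were -1.25 to 0.20 for Hmox1 and -0.80 to 0.0466 for Gclm under AB, -0.20 to 0.000168 for Txnrd1 with hispidulin averaged, -0.0184 to 0.19 for Nox4 between the Sham groups and -0.23 to 0.57 for Srxn1 with hispidulin after AB. The fit without DMSO+Sham mouse 3 in comparisons that do not contain it was chosen after seeing the data. With 3 mice per group and unknown depth, small changes of Hmox1, Cybb and Nox4 cannot be resolved.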
